A study of Homo sapiens with 7 samples.

Results

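In a massively parallel reporter assay delivered by lentivirus to HepG2 cells, which derive from a human liver carcinoma, the sequences described here had little reporter RNA for their DNA whichever way round they were cloned. They were chosen by their measured RNA and DNA counts in replicate 1 alone. For each copy (1 numbered sequence in 1 orientation) a score S was computed as the log2 of its share of all RNA counts over its share of all DNA counts. A sequence was a member where its forward and reverse copies both had at least 50 DNA counts in replicate 1 and both had an S of -1.2 or less. The rule found 388 members among 65106 sequences with enough DNA counts in both orientations, or 0.596%, and among 68115 sequences listed in all.

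The library asks how transcription factor binding and ChIP-seq signal relate to regulatory activity. Test elements of 170 nucleotides stood upstream of a minimal promoter and a transcribed barcode, and each was cloned in both orientations. The virus was made in 293FT cells, and HepG2 cells were harvested 48 hours after infection. All DNA and RNA libraries came from this 1 line, and the labels name no treatment beyond the infection. There were 3 DNA and 3 RNA libraries, of 34860651 to 44258011 and 108324310 to 114738370 counts, and 1 plasmid library that tied barcodes to elements. Whether replicates were separate infections is not stated, so p-values cover only the spread among these libraries, and that spread may be technical.

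In such an assay each integrated construct is counted in DNA through its barcodes, and the same barcodes are counted in RNA. An enhancer or promoter placed before a weak promoter raises the RNA over the DNA, while an inert element leaves the basal output of the minimal promoter. An element that lowers transcription, for instance through a bound repressor, brings the RNA below that basal level. A barcode can also affect its own transcript, which is why many barcodes per element are averaged. The element bases and genome positions behind the numbers were not analysed here, so the members are described by number, counts, barcodes and order.

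The only bases tied to the numbers here are those of the barcodes, the tags read in DNA and RNA. Those of 2 members with few barcodes are printed, since they show how little sequence a value can rest on. Seq_37790 had the fewest, 4 over both copies, and Seq_21144 shared the next place, at 8, with Seq_32427 and Seq_48670 and was taken for its lower number. They are given as listed, in lower case, with no part marked.
Seq_37790 forward: agccggatcatcagt
Seq_37790 reverse, barcode 1: cctacactgcaacta
Seq_37790 reverse, barcode 2: gtattttttaataca
Seq_37790 reverse, barcode 3: taccatatcaggttt
Seq_21144 forward, barcode 1: acgccttaagacatg
Seq_21144 forward, barcode 2: gcatatgtctacagt
Seq_21144 forward, barcode 3: taacattttggaagt
Seq_21144 forward, barcode 4: tatgcaaacagcaga
Seq_21144 forward, barcode 5: tccccatgcctatat
Seq_21144 forward, barcode 6: tgatcgatagacaat
Seq_21144 reverse, barcode 1: aacagcccatctaga
Seq_21144 reverse, barcode 2: actatcgtattactt
Seq_37790 thus rested on 1 forward and 3 reverse barcodes and Seq_21144 on 6 and 2. Every one of the 662 copies in the library with a single barcode had an even count in all 6 libraries, while among the 392 copies with 2 barcodes 50.5% to 64.5% of counts were even, depending on the library. The forward copy of Seq_37790 is 1 of these 662, and the part of this property in its values was not tested.

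The members stayed low in the replicates that had not chosen them, but by less than in replicate 1. By the choice itself, the 776 member copies had a median S of -1.32 in replicate 1, where all copies with at least 50 DNA counts had a median of -0.47. In replicate 2 the members' median was -1.17 (quartiles -1.36 and -0.92), against -0.45 for 130447 copies with at least 50 DNA counts. In replicate 3 it was -1.11 (quartiles -1.3 and -0.87), against -0.43 for 130371 copies. The difference from the median copy was -0.72 in replicate 2 and -0.68 in replicate 3, which is -0.70 ± 0.03 (SD, n = 2), or 1.65-fold and 1.60-fold less RNA per DNA. Members with fewer than 50 DNA counts in replicates 2 and 3 were kept in these values. Replicates 2 and 3 carry the same barcodes as replicate 1, and the part of the barcodes in these values was not tested.

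Nearly all members lay on the low side. In replicate 2, 747 of 776 member copies (96.3%) were below the median of all copies, and in replicate 3, 745 (96.0%). Both copies were below it for 361 of 388 sequences in replicate 2 and for 357 in replicate 3, and for 337 (86.9%) in both of these replicates. The share of all sequences with both copies below it is not given here. In replicate 2, 6 member copies had an S above 0, and in replicate 3, 7 did, that is, a larger share of RNA than of DNA.

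Fewer copies stayed as low as in replicate 1. An S of -1.2 or less was found again for 362 member copies (46.6%) in replicate 2 and for 295 (38.0%) in replicate 3, where the shares of all copies at that level were 7.24% and 6.23%. Both copies were at or below -1.2 for 89 members (22.9%) in replicate 2 and for 60 (15.5%) in replicate 3. The whole rule, with its DNA minimum, found 690 of 63798 sequences with enough DNA counts (1.08%) when applied to replicate 2. Applied to replicate 3, it found 493 of 63739 (0.773%). The list of replicate 1 shared 88 sequences with that of replicate 2 (22.7% of the first and 12.8% of the second) and 58 with that of replicate 3 (14.9% and 11.8%). All 3 lists held 27 sequences.

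The distance below the main body of elements was smaller than that below the median. The values of all copies peaked at a mode of -0.79 in replicates 2 and 3, and the more active elements spread out above that peak, so the median lies above it. Member copies had a median 0.38 below the mode in replicate 2 and 0.32 below it in replicate 3, or 1.30-fold and 1.25-fold. Below the mode lay 647 member copies (83.4%) in replicate 2 and 636 (82.0%) in replicate 3. For all copies, the mode lay between the lower quartile (-0.86 in replicate 2 and -0.84 in replicate 3) and the median. Below percentile 5 of all copies lay 291 (37.5%) and 254 (32.7%).

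DNA and RNA both differed from the library's usual level. Member copies had a median of 5.54 CPM (counts scaled to a common library total) in DNA replicate 1, 5.01 in replicate 2 and 5.02 in replicate 3, against 6.72 to 6.78 CPM for copies of all 65106 sequences. In RNA the members had a median of 2.17, 2.29 and 2.36 CPM, against 5.29 to 5.30 CPM. Copy by copy, DNA in replicate 1 was 1.10-fold the mean of replicates 2 and 3 and RNA was 0.938-fold, both as medians. For copies of all 65106 sequences these ratios were 1.00. The rule used the counts of replicate 1, so this shift describes how members were chosen.

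Each copy was then tested for RNA against DNA in replicates 2 and 3 alone, with the quasi-likelihood test of edgeR and Benjamini-Hochberg adjustment over 134507 copies. A call is an adjusted p under 0.05. These replicates carry the barcodes of replicate 1, so a call does not separate an element from its barcodes. Fold changes are relative to a centre set by TMM, edgeR's scaling between libraries, which lies near the median copy. Of 776 member copies, 595 (76.7%) were called lower and 1 higher, where 28.2% of all tested copies were called lower and 32.4% higher. Both copies were called lower for 232 members (59.8%), 1 copy for 131 and neither for 25, against 13.4% of all sequences with both copies called. The members' median log2 fold change was -0.72 (quartiles -0.89 and -0.55), with a median standard error of 0.19, and that of all tested copies was -0.05.

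A fall of at least 2-fold was called less often. It was found for 107 member copies (13.8%), where 1.13% of all tested copies passed, and for both copies of 12 members, where 0.0509% of sequences passed. This share depended on the centre and on the choice of members. It was 68.8% with scaling by library size alone, which lowers the fold changes of all copies (median -0.45 in place of -0.05), and 14.5% of all copies passed there. It was 6.38% for members chosen by the same rule in replicate 2 and 7.40% for those chosen in replicate 3, each tested in the remaining replicates, where 0.715% and 0.775% of all copies passed.

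Set against the main body of elements, a smaller number of members was called. With the centre moved to the mode of all fold changes, which was at -0.37 on the TMM scale, 291 member copies (37.5%) were called lower and 2 higher, where 6.91% of all tested copies were called lower and 45.8% higher. This centre was the same for both orientations, though reverse copies lay lower in the whole library. Called lower were 98 forward and 193 reverse member copies (25.3% and 49.7%), where 2.32% of all forward and 11.5% of all reverse copies were. Both copies were called higher for 36.5% of all sequences. Both copies were called lower for 63 members (16.2%), 1 copy for 165 and neither for 160, against 0.853% of all sequences. At least 2-fold below the mode were 5 member copies and 0.0729% of all copies. A miss here does not show that a member equals the main body, since the members' median standard error of 0.19 is large beside a median of -0.35 from the mode.

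Of the 3 members with the most DNA counts, Seq_32187 had 187 forward and 272 reverse barcodes. Its forward copy had 1034, 868 and 879 DNA counts and 1061, 988 and 892 RNA counts in replicates 1, 2 and 3, an S of -1.34, -1.47 and -1.61. Its reverse copy had an S of -1.33, -1.3 and -1.28. All 6 values were at -1.2 or below, and the log2 fold changes were -1.14 (SE 0.10, adjusted p = 6.35e-11 by edgeR) forward and -0.89 (SE 0.10, adjusted p = 3.28e-09) reverse. Seq_22139, with the most DNA counts of all members in replicates 2 and 3, had an S of -1.25, -1.42 and -1.40 forward and of -1.23, -0.94 and -1.14 reverse. Its reverse copy was thus above the cut in both later replicates, and its fold changes were -1.01 (SE 0.10) and -0.63 (SE 0.10). Seq_21335, with 733 barcodes over both copies, was at -1.26, -1.33 and -1.33 forward and at -1.21, -1.01 and -1.1 reverse. All copies of these 3 members were called lower against both centres.

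The 5 members with the lowest mean fold change in replicates 2 and 3 were Seq_48670, Seq_68551, Seq_22505, Seq_68915 and Seq_68540. Seq_68551 had 56 and 123 barcodes. Its forward copy had 274, 260 and 193 DNA counts and 226, 153 and 224 RNA counts, an S of -1.65, -2.42 and -1.42. Its reverse copy was at -1.71, -1.85 and -1.43. Replicate 2 was the lowest for both copies, and the fold changes were -1.51 (SE 0.21, adjusted p = 3.59e-07 by edgeR) and -1.24 (SE 0.17, adjusted p = 4.28e-07). Seq_68540, on 53 and 74 barcodes, was at -1.64, -1.50 and -1.29 forward and at -1.90, -1.46 and -1.89 reverse, with fold changes of -1.01 and -1.29. Both sequences lie in a stretch of numbers described at the end.

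The other 3 of these 5 rested on few barcodes. Seq_48670 had 5 forward and 3 reverse barcodes. Its reverse copy had 60, 58 and 40 DNA counts and 47, 30 and 38 RNA counts, an S of -1.73, -2.61 and -1.71, and the lowest fold change of any member copy, -1.77 (SE 0.40, adjusted p = 0.00038 by edgeR). Its forward copy was steadier, at -1.45, -1.40 and -1.38. Seq_22505, on 6 and 9 barcodes, had RNA counts of 88, 55 and 123 in its forward copy and an S of -1.48, -2.41 and -0.94, so its replicates were wide apart. Seq_68915, on 5 and 10 barcodes, was at -1.65, -1.36 and -1.37 forward and at -1.35, -2.22 and -1.45 reverse.

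Of the 2 members whose barcodes are printed above, 1 stayed low in both copies and the other in its reverse copy only. Seq_21144 had an S of -1.24, -1.22 and -1.68 forward and of -2.10, -2.08 and -1.21 reverse, all 6 at or below the cut, with fold changes of -1.04 (SE 0.19) and -1.24 (SE 0.35). Seq_37790 stayed low in its reverse copy, at -1.82, -1.59 and -1.29. Its forward copy, of a single barcode, had 70, 30 and 38 DNA counts against 72, 124 and 92 RNA counts, an S of -1.33, 0.39 and -0.36.

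The members that were lowest in replicate 1 by the mean of both copies were Seq_67022, Seq_68542, Seq_32427, Seq_68562 and Seq_68540. The forward copy of Seq_67022 had 148, 70 and 78 DNA counts and 75, 95 and 92 RNA counts, so its S was -2.35 in replicate 1 and -1.21 and -1.40 in the others. The forward copy of Seq_68562 was at -2.35, -1.63 and -0.95. Seq_68542 was at -1.75, -1.53 and -1.08 forward and at -1.84, -1.87 and -1.35 reverse. Seq_32427, on 4 barcodes in each orientation, was lower still in replicate 2, at -1.96, -2.13 and -1.13 forward and at -1.63, -1.95 and -0.93 reverse. The 10 copies of these 5 sequences were all called lower against the TMM centre in replicates 2 and 3. Against the mode, both copies of Seq_68540 and the reverse copy of Seq_68542 were called lower and the other 7 were not.

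At the other end, 5 members had the highest mean fold change: Seq_4087, Seq_47626, Seq_44332, Seq_35968 and Seq_5193. Seq_4087 carried 11 barcodes in each orientation. Its reverse copy had 66, 39 and 24 DNA counts and 73, 198 and 81 RNA counts, an S of -1.23, 0.69 and 0.12. This was the 1 member copy called higher, with RNA 0.90 above DNA on the log2 scale (SE 0.39, edgeR adjusted p = 0.0474). The call was lost with DESeq2 (adjusted p = 0.0912), with scaling by library size alone (0.50, edgeR adjusted p = 0.245) and with all 3 replicates (0.36, edgeR adjusted p = 0.359). Its forward copy was at -1.31, -0.07 and -1.22. Seq_35968 carried more barcodes, 88 and 103, and was at -1.46, -0.09 and -0.48 forward and at -1.55, -0.92 and -0.76 reverse. Its fold changes of 0.17 (SE 0.27) and -0.43 (SE 0.23) were not called. Seq_44332, on 7 and 9 barcodes, had fold changes of 0.04 (SE 0.38) and -0.19 (SE 0.38), not called either. Seq_5193 had a fold change of 0.52 (SE 0.40, not called) forward and of -0.82 (SE 0.29) reverse. The rule admitted it on 51 forward DNA counts, next to the minimum.

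Members carried fewer barcodes than other sequences. The median was 62 for member copies (quartiles 38 and 91, lowest 1, highest 393), against 88 (quartiles 61 and 120) for copies of all 65106 sequences. Of the sequences whose scarcer copy had fewer than 20 barcodes, 3.62% were members. The share was 1.12% at 20 to 49 barcodes, 0.532% at 50 to 99 and 0.253% at 100 or more. The base composition of the barcodes was similar, with a median of 39.0% G and C in members and in all copies.

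Members with many barcodes and those with few were at similar levels in replicates 2 and 3, but the former were called lower more often. Replicate 1 chose the members, so the drop from its values describes that choice. The 55 members with 100 or more barcodes in both copies had a median S of -1.28, -1.2 and -1.12 in replicates 1, 2 and 3. The 44 members whose scarcer copy had fewer than 20 barcodes started lower, at -1.44, and were at -1.18 and -1.07 in replicates 2 and 3. Called lower against the TMM centre were 103 of 110 copies (93.6%) in the first group and 50 of 88 (56.8%) in the second, where 33.6% and 22.6% of all copies with as many barcodes were called. Against the mode, 59.1% and 25% of member copies were called lower, and 8.88% and 6.87% of all such copies. Copies with more barcodes also had more counts, at a median of 466 against 102 DNA counts in replicate 1 for members, and the part of depth in these shares was not tested.

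The forward and reverse copies of members were also compared. In replicates 2 and 3 the reverse copies were the lower, with a median S of -1.23 and -1.17 against -1.09 and -1.0 for forward copies. Reverse copies were lower throughout the library, at a median of -0.58 and -0.56 against -0.35 and -0.33. Against the mode of their own orientation, forward members were 0.46 lower in both replicates, and reverse members 0.31 and 0.26 lower. Called lower against the TMM centre were 263 forward and 332 reverse member copies (67.8% and 85.6%), where 18.1% of all forward and 38.2% of all reverse copies were called.

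The difference between orientations was tested in edgeR as the interaction of molecule and orientation in replicates 2 and 3, over 66808 sequences. It was called for 21 members (5.41%) with the forward copy higher and for 3 (0.773%) with the reverse copy higher, where 16.4% and 4.83% of all sequences were called. The median forward minus reverse difference was 0.17 among members and 0.19 among all sequences. The rule asked for low values in both orientations, and the members' median standard error of 0.28 was above that of all sequences, 0.21, so fewer calls among members cannot be read as more alike orientations. Of the named members, the difference was called in Seq_5193 and Seq_37790, whose forward copies were higher, and in Seq_47626 and Seq_35819, whose reverse copies were higher. The largest forward excesses were those of Seq_34835, at 1.53 (SE 0.67, adjusted p = 0.097, not called) on DNA counts as low as 11, and of Seq_37790. Those of the reverse copy were in Seq_47626 and Seq_35819.

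Sequences near the rule's limits had similar values. The 165 members whose higher copy lay between -1.25 and -1.2 in replicate 1 had a median S of -1.12 and -1.09 in replicates 2 and 3. The 310 sequences just outside, with the higher copy between -1.2 and -1.15, were at -1.07 and -1.05. Sequences low in 1 orientation only were far more numerous than members, at 1368 low forward and 4830 low reverse. The low copy of these had a median S of -1.0 and -0.97 in replicates 2 and 3 where it was forward, and of -1.15 and -1.13 where it was reverse. The other copy was at -0.95 and -0.92 beside a low forward copy, and at -0.73 and -0.70 beside a low reverse copy. These medians are not set against the lower level of reverse copies in the whole library. Called lower against the TMM centre were 77.9% of copies just inside and 75.2% just outside, where 28.2% of all copies were. Of low copies in sequences low in 1 orientation, 61.8% of forward and 89.6% of reverse ones were called (all copies 18.1% and 38.2%). Against the mode these shares were 16.6% and 47.8% (all copies 2.32% and 11.5%). High call shares were thus not particular to members.

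Members were spread over nearly the whole numbering, from 1959 to 69157, at uneven density. They made up 0.425% of eligible sequences numbered 1 to 6000 and 0.431% of those numbered above 6000 and up to 12000, that is, 24 members in each range. Above 12000 and up to 20000 there were 6 members among 7569 sequences, or 0.0793%. The share was 0.514% on to 31000, 0.757% on to 56000, where 177 members lay, 0.707% on to 66000 and 0.594% on to 68000. Of these ranges, it was highest above 68000, at 25 of 1158 sequences or 2.16%. The ranges differ in width. In bins of 1000 numbers, the share was 2.42% in that ending at 69000 and 2.33% in that ending at 22000. The widest gap between members ran from 12827 to 16486, and 10 of 70 bins of 1000 numbers held no member.

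The ranges were not ordered alike by density and by activity. The median S of eligible copies in replicate 2 was 0.57 between 6000 and 12000 and 0.14 between 12000 and 20000. The former range held the larger share of members, but not evenly. Of its 24 members, 8 lay in the bin of 1000 numbers ending at 7000 and 13 in that ending at 8000. The bins ending at 11000 and 12000 held none. That median S was -0.69 between 31000 and 56000, -0.72 between 56000 and 66000, and 0.19 above 68000, where members were densest. Of the 25 members above 68000, however, 20 lay in 1 low stretch of 36 eligible sequences, described below. The copies of that stretch, members and others together, had a median S of -1.29 in replicate 2. The members' own median S by range lay between -1.12 and -1.3 in replicate 2 and between -0.96 and -1.28 in replicate 3, lowest above 68000 in both. Of the bins of 1000 numbers between 20000 and 31000, that ending at 22000 held 20 members, and those ending at 24000, 25000 and 28000 held none. The eligible copies of these 4 bins had a median S in replicate 2 of -0.84, 0.60, 0.43 and -0.21.

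Sequences next to members in number were low as well. Non-members 1 number away from a member had a median S of -0.86 and -0.83 in replicates 2 and 3, which is 0.41 and 0.40 below the median of all copies. The distance fell to 0.35 in both replicates at 2 numbers, to 0.27 and 0.28 at 10 numbers and to 0.14 and 0.13 at 1000 numbers. With members up to 68000 only, neighbours 1 number away were at -0.85 and -0.82. The level around members was itself low, at a median of -0.71 and -0.70 in replicates 2 and 3. It was taken over eligible non-members within 50 numbers, as means of both orientations. The distances from the median of all copies include this lower level. Among members, 34 had another member as direct neighbour and 114 (29.4%) had one within 10 numbers.

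The longest chain of members no more than 5 numbers apart lay between 68532 and 68568. This way of finding it was set after its values were seen, so they are a description. Of 36 eligible sequences there, 20 were members, and the next longest chain held 3. These 20 were most of the 25 members above 68000. All 72 copies were below the median of all copies in replicate 2, and 70 in replicate 3. Their median S was -1.29 and -1.24 in these replicates, 1.79-fold and 1.75-fold below that median. The 16 non-members of the stretch had a median S of -1.23 and -1.19. These values rested on many barcodes, with a median of 115.5 per copy.

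The stretch was bounded by unlike neighbours. The 35 eligible sequences from 68495 to 68531, a window of the same 37 numbers, held 1 member, and their copies had a median S of -0.73 and -0.75. The 32 eligible sequences from 68569 to 68605 held none. There, even numbers had a median S of 1.08 and 0.99 and odd numbers of -0.19 and -0.14. The window after the stretch was thus the more active of both.

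The longest unbroken run of members, Seq_68561 to Seq_68565, lay inside the stretch. Seq_68563, on 225 and 240 barcodes, was the best measured of them. Its forward copy had 684, 518 and 463 DNA counts and 669, 633 and 591 RNA counts, an S of -1.41, -1.36 and -1.28. Its reverse copy was at -1.21, -1.18 and -1.28, and both were called lower against both centres. Seq_68561 was at -1.47, -1.16 and -1.73 forward and at -1.82, -1.52 and -1.57 reverse. Seq_68564 was at -1.38, -1.29 and -1.01 forward and at -1.60, -1.2 and -1.58 reverse. Seq_68565 had a forward copy at -1.24, -1.03 and -0.26, on 40 DNA counts in replicate 3, with a fold change of -0.30 (SE 0.32) that was not called. The other 9 copies of the run were called lower against the TMM centre. Of these, both copies of Seq_68562, the forward copy of Seq_68564 and the reverse copy of Seq_68565 were not called against the mode.

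Members outside the stretch were also low. The 368 members elsewhere had a median S of -1.16 and -1.1 in replicates 2 and 3. The 40 member copies inside the stretch were at -1.33 and -1.29. Called lower against the TMM centre were 560 of 736 copies elsewhere (76.1%) and 35 inside (87.5%), where 28.2% of all tested copies were. Against the mode, 271 elsewhere (36.8%) and 20 inside (50%) were called lower, where 6.91% of all tested copies were.

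In the authors' deposited table, whose log2 signal pools the 3 replicates and so includes the counts that chose the members, the member copies had a median signal of -1.2, with a range of -1.97 to -0.10. All 135736 listed copies had a median of -0.47.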

How the data were processed

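Per the file headers, the deposited tables of the DNA and RNA libraries hold whole-number counts per element copy. A second table deposited by the authors sums all replicates and gives counts, CPM, the ratio of RNA to DNA and, as signal, its log2. BWA 0.7.17 and hg38 appear in the submitters' processing notes with no role. No source used here says whether reads or molecules were counted. The association table gives 12452483 barcodes of 15 bases.

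S was computed from counts over library totals. Tests used edgeR 4.0.16 in R 4.3.3 on replicates 2 and 3, with TMM scaling, group as the only term, robust quasi-likelihood dispersion on all copies whose DNA libraries each held 10 counts or more. Replicate 1 was left out because it chose the members. Each standard error is the estimate divided by the root of its F statistic. The mode is the peak of a Gaussian density with a bandwidth of 0.05. For the orientation test, each library was split into a forward and a reverse column. Both tests were tried on simulated counts of fixed dispersion in which nearly all copies had no difference between RNA and DNA. The real copies differ far more often, so that trial does not check the calls or the centre used here. No pair of libraries agreed within sampling noise (chi-square per degree of freedom 3.01 to 6.60).

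Named members were the 5 lowest and the 5 highest by mean fold change in replicates 2 and 3, the 5 lowest in replicate 1, the longest run of numbers, the 3 with most DNA counts, the 2 with fewest barcodes (ties to the lower number), and the 2 with the largest orientation difference each way. The members and lists were chosen with earlier results of these data known. Alternatives were other scalings, DESeq2 1.42.0, filters, blocks and rules for members.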

Additional observations from a re-analysis of the deposited data

Results flagged for a closer look

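In 4 named members the orientations differed in the interaction test of edgeR on replicates 2 and 3, which is what singled them out. In Seq_37790 the log2 fold change was 1.48 higher in the forward copy (SE 0.44, adjusted p = 0.0157), with the forward copy resting on 1 barcode. In Seq_47626 the forward minus reverse difference was -1.15 (SE 0.36, adjusted p = 0.0186). Its reverse copy had 149, 60 and 48 DNA counts and 147, 239 and 156 RNA counts, an S of -1.39, 0.34 and 0.06, on 30 barcodes. In Seq_35819 the difference was -1.1 (SE 0.34, adjusted p = 0.0172), with a fold change of -1.04 forward and 0.07 reverse, on 40 and 36 barcodes. In Seq_5193 the difference was 1.34 (SE 0.50, adjusted p = 0.0491), on 28 forward and 40 reverse barcodes, with DNA counts of 51, 26 and 19 in the forward copy. Each orientation has barcodes of its own, so within a single sequence orientation and barcodes cannot be told apart.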

How the results depend on the processing

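The share of member copies called lower was 76.7% against the TMM centre. Over the alternatives it lay between 69.6% (DESeq2) and 95.5% (library size alone), where 21.9% and 53.5% of all copies were called. Both of these set a centre of their own. With all 3 replicates, which include the counts that chose the members, it was 94.1% (all copies 32.2%). With a minimum of 2-fold the share against the TMM centre was 13.8%. That share was 68.8% with library size alone, 9.01% for members at S of -1.1, 6.38% for members chosen in replicate 2 and 7.40% for those chosen in replicate 3, each tested in the other replicates (all copies 14.5%, 1.13%, 0.715% and 0.775%). Against the mode the share was 37.5%, and 58.1% with all 3 replicates (all copies 7.89%), which include the counts that chose the members. It was 27.8% with DESeq2 (all copies 4.50%). Orientation calls moved to 0.288% reverse with at least 50 DNA counts (all sequences 5.14%), to 2.84% forward and 0.258% reverse with all 3 replicates (24.7% and 7.67%), while measured from the median difference of all sequences they were 0.773% forward and 3.87% reverse (7.08% and 9.02%). The members' median below the bulk, -0.70, was -0.50 with a pseudocount of 1 CPM, -0.35 against the mode, -0.63 at a rule of -1.1 and -0.73 at -1.3, and -0.68 and -0.72 without replicate 2 or without replicate 3. The share of members above 68000 was 1.22% when chosen in replicate 3, 3.89% at -1.1 and 1.12% at -1.3, against 0.773%, 1.75% and 0.206% of all sequences. That between 12000 and 20000 was 0.269% when chosen in replicate 2 and 0.291% at -1.1, against 1.08% and 1.75% of all sequences. Where no construction of the alternative shows it, the cause was not tested. Without replicate 2 or 3, 1 library of each kind is left with no residual degrees of freedom, so no call was made.

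Uncalled values of named copies changed sign. With library size alone these were Seq_34835 forward (-0.15), Seq_35819 reverse (-0.33), Seq_35968 forward (-0.23) and Seq_44332 forward (-0.36). With all 3 replicates they were Seq_5193 forward (-0.050), Seq_34835 forward (-0.20), Seq_35819 reverse (-0.19), Seq_35968 forward (-0.23), Seq_37790 forward (-0.028) and Seq_44332 forward (-0.27). Against the mode they were Seq_4087 forward (0.17), Seq_44332 reverse (0.17) and Seq_68565 forward (0.071). Of the 50 named copies, 12 lost their call against the mode. The orientation call of Seq_5193 was lost with all 3 replicates (0.734), against the median difference (1.15) and with the replicate block (1.32, adjusted p = 0.0514), and that of Seq_47626 with all 3 replicates (-0.634).

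With the replicate block, 79.4% of member copies were called lower, 42.5% against the mode and 13.5% with the 2-fold minimum (all copies 29.5%, 7.65% and 1.14%), and orientation calls were 5.15% and 0.773% (all sequences 16.8% and 4.93%). DNA and RNA of the same number deviated together only weakly (r of 0.03 to 0.05 across copies), though each DNA library correlated best with the RNA library of its own number.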

Other observations

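A small number of members lay among active sequences. For each member, the median S of eligible non-members within 50 numbers on either side, as means of both orientations, was taken as the local level. In replicate 2 this level was above 0 for 16 members, with a median of 0.18, and the members there had a median of -1.26. In replicate 3 it was above 0 for 20 members, with a median of 0.14, and the members there were at -1.06. All 16 and all 20 were below their local level, which was likely beforehand, since low members beside a level above 0 were picked. Over all members the difference from the local level had a median of -0.43 in replicate 2 and of -0.40 in replicate 3, and 359 (92.5%) and 367 (94.6%) of 388 lay below it. Members were chosen for low values in replicate 1, whose barcodes are those of replicates 2 and 3, so this is a description with no test.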
